A study of Mus musculus with 3 samples.

Results

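The 10 genes described here encode the G1 cyclins, their kinases and the activator E2F factors: Ccnd1, Ccnd2, Ccnd3, Ccne1, Ccne2, Cdk4, Cdk2, E2f1, E2f2 and E2f3. They were chosen by symbol from the 50043 gene IDs of the deposited expression table, and each symbol matched 1 Ensembl ID. RNA was sequenced from KH2 mouse embryonic stem cells carrying an inducible knockout of Pold3, whose protein is an accessory subunit of polymerase delta, the main lagging-strand DNA polymerase. There was 1 library from each of passages P0, P1 and P2. The labels give 1 cell line for all libraries and do not say with what agent, or when relative to P0, the knockout was induced. The question set by the design was which transcript levels change with passage. With 1 library per passage no difference has a replicate check, so no p-value is given.

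D-type cyclins are made in response to growth signals and activate CDK4 and CDK6, which begin the phosphorylation of the retinoblastoma protein. Cyclin E then activates CDK2, which completes that phosphorylation and releases E2F1, E2F2 and E2F3 to transcribe genes for DNA synthesis. Embryonic stem cells are known for a short G1 phase, abundant cyclin E and a retinoblastoma protein that stays largely phosphorylated. CDK inhibitors of the p21 and p16 families, several of them induced by p53 or by stress, oppose these kinases.

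Levels are FPKM, the fragments per kilobase of gene scaled to the library total. The totals behind them were 23213528 (P0), 18059914 (P1) and 22405670 (P2) reads. Reads per gene were recovered from the FPKM steps. Intervals are 95% intervals on those reads, exact except for shares, cover counting error only, and compare libraries rather than conditions. Pold3 measured 49.2 FPKM at P0, 13.0 at P1 and 11.6 at P2, so the targeted transcript was 3.78-fold lower at P1 and 4.23-fold lower at P2 than at P0. All 8 stem cell markers examined, Pou5f1, Nanog and Sox2 among them, had at least 1 FPKM in each library, and their summed level was 3435, 3093 and 3272 FPKM. Of these 8, 2 were above and 6 below P0 at P2, beside 57.7% of all genes above P0. Their median log2 difference was -0.29, beside 0.07 over all genes. Klf4 was past 2-fold lower, at 229, 116 and 113 FPKM, and Esrrb measured 221, 127 and 118 FPKM. The 2 above P0 at P2 were Nanog, at 179, 165 and 240 FPKM, and Dppa5a, at 1089, 1107 and 1322 FPKM. Of 12 fibroblast feeder markers, 5 had at least 1 FPKM in each library. The summed level of all 12 was 285, 208 and 192 FPKM, most of it Fn1 and Vim, and Postn and S100a4 were listed at 0 throughout. Col1a1 and Thy1, 2 of the 5 measured, were past 2-fold higher at P1 and P2 against P0. The summed level of 8 trophoblast markers was 56.2, 84.3 and 119 FPKM. Most of it was Krt8 (21.7, 42.3 and 48.3 FPKM) and Tfap2c (25.9, 30.5 and 50.9 FPKM). Of the 7 measured at P2 against P0, 5 were past 2-fold higher, beside 6.72% of all genes, and Tfap2c and Eomes were not. Cdx2 and Gata3 were low, at 0.171 and 0.282 FPKM at P0 and 1.78 and 2.54 FPKM at P2. The 8 primitive endoderm markers summed to 5.77, 5.98 and 9.11 FPKM. Against P0 only 2 were measured at P1 and 4 at P2, and by the rule below none was past 2-fold. That rule adds 1 FPKM to each level. The plain ratios of P2 to P0 for those 4 were 1.03 for Gata4, 2.37 for Gata6, 3.18 for Sox7 and 1.58 for Dab2. The 6 mesoderm markers summed to 2.53, 7.59 and 9.57 FPKM, mostly Hand1 (0.827, 5.07 and 7.11 FPKM), the 1 measured and past 2-fold higher at P1 and P2. The 6 neuroectoderm markers summed to 31.0, 37.9 and 31.1 FPKM. Among them Neurod1 was past 2-fold higher at P1 and P2, Pax6 and Sox1 were past 2-fold lower at P1, and Sox11 was past 2-fold lower at P2, all against P0. Beside these marker calls, 4.12% of all genes were past 2-fold higher and 0.549% lower at P1 against P0. At P2 against P0 the shares were 6.72% and 1.16%. The part of these markers in the results below was not tested. In bulk RNA, fewer cells of a type and less RNA per cell cannot be told apart.

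None of the 10 genes passed 2-fold in any comparison. A gene was counted as past 2-fold when log2(FPKM + 1) changed by 1 or more from one library to the other. Only genes reaching 1 FPKM in either library were compared. By that rule 4.67% of 13288 genes were past 2-fold at P1 against P0. The share was 7.88% of 13472 genes at P2 against P0 and 1.66% of 13585 genes at P2 against P1. Counts of 0 in 10 lie near these shares and are no result particular to the cyclins, kinases and E2Fs. Between P0 and P1, 548 of all genes were higher and 73 lower, and quantile normalization made this 384 and 129. Between P0 and P2 the counts were 905 and 156, and 621 and 260 after quantile normalization.

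The 10 genes differed in level by a wide margin, and each gene's own level moved much less between libraries. Cdk4, Ccne1 and Ccnd3 were the highest in every library, in that order, and E2f2 was the lowest. At P0 Cdk4 lay above 98.1% of the genes with at least 1 FPKM and E2f2 above 43.1%. The largest ratio between any 2 libraries was 1.49, for Ccnd1, followed by 1.48 for Ccnd2 and 1.47 for Ccne2. Between its highest and lowest library Cdk2 and E2f1 each differed by 1.21, Ccne1 by 1.18, Ccnd3 by 1.17 and Cdk4 by 1.12. E2f3 and E2f2 differed least, by 1.07 and 1.06.

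**Figure D1:**
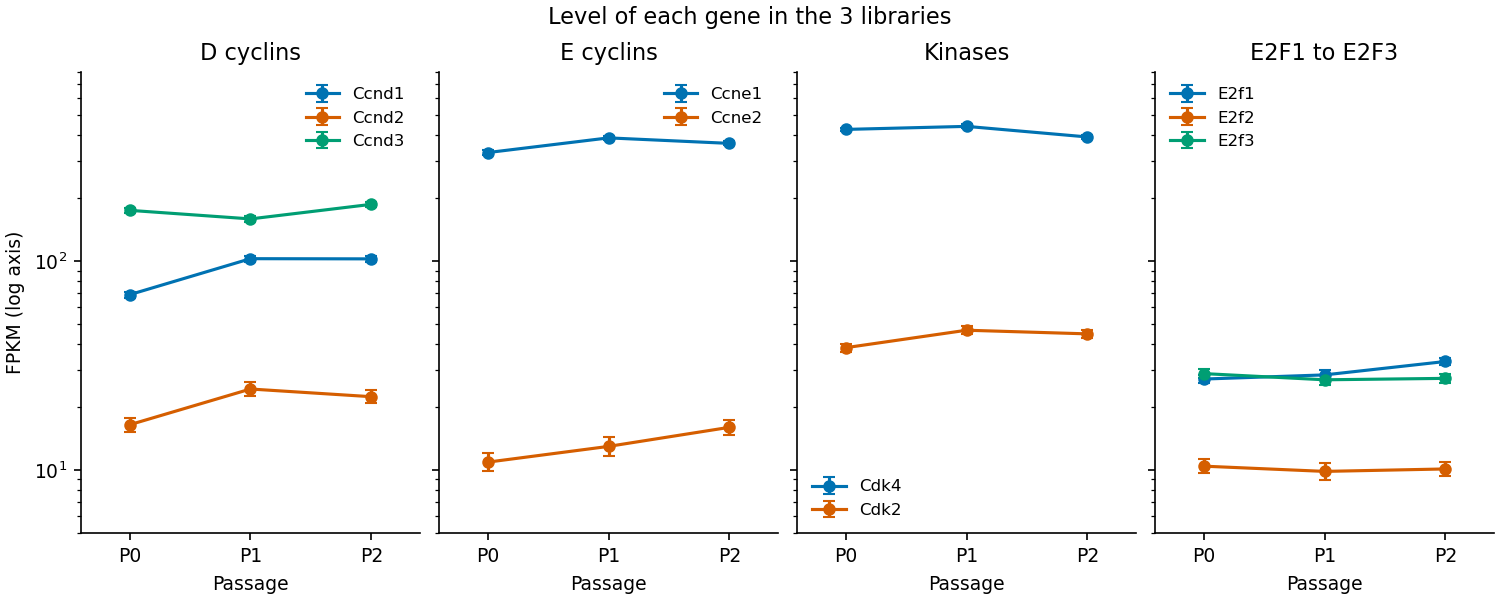
FPKM (log axis) of the 10 genes at passages P0, P1 and P2, 1 library each, in panels by family. Points are deposited values and bars are exact 95% counting intervals; Ccnd1, Ccnd2 and Ccne2 are the genes whose P2 level is furthest from P0, by 1.48-, 1.36- and 1.47-fold.

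Ccnd1 and Ccnd2 were higher at both later passages, while Ccnd3 stayed close to its P0 level. Ccnd1 (ENSMUSG00000070348, chromosome 7) encodes cyclin D1, the D-type cyclin most often linked to mitogen signalling. It measured 69.0 FPKM at P0 from 3193 reads, 103 at P1 from 3693 reads and 102 at P2 from 4572 reads. P0 was the low library and P1 and P2 were nearly the same. The ratio to P0 was 1.49 at P1 (interval 1.42 to 1.56) and 1.48 at P2 (interval 1.42 to 1.55). The ratio of P2 to P1 was 0.998 (interval 0.955 to 1.04), so the whole difference lay between P0 and P1. Of all genes compared, 14.6% differed at least as much as Ccnd1 between P0 and P1 and 21% between P0 and P2.

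Ccnd2 (ENSMUSG00000000184, chromosome 6) encodes cyclin D2, a paralog with a more restricted tissue pattern. It measured 16.5 FPKM at P0 from 626 reads, 24.4 at P1 from 722 reads and 22.4 at P2 from 823 reads. P0 was again the low library. The ratio to P0 was 1.48 at P1 (interval 1.33 to 1.65) and 1.36 at P2 (interval 1.23 to 1.51). Between P2 and P1 the ratio was 0.919 (interval 0.830 to 1.02), which was not a detectable difference at this depth. The Ccnd1 and Ccnd2 differences from P0 kept their direction under median-of-ratios scaling, rescaling to an equal sum and quantile normalization.

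Ccnd3 (ENSMUSG00000034165, chromosome 17) encodes cyclin D3, here the most abundant D cyclin by FPKM. It measured 175 FPKM at P0 from 4789 reads, 159 at P1 from 3390 reads and 187 at P2 from 4938 reads. P1 was the low library, in contrast to both paralogs. The ratio of P1 to P0 was 0.910 (interval 0.870 to 0.951) and that of P2 to P1 was 1.17 (interval 1.12 to 1.23). The ratio of P2 to P0 was 1.07 (interval 1.03 to 1.11), but its direction turned under median-of-ratios scaling, where the log2 difference was -0.04 in place of 0.09.

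Within the D cyclins the mixture therefore differed between libraries. Ccnd3 made up 67.2% of the summed D-cyclin FPKM at P0 (interval 66.2 to 68.1), 55.6% at P1 (interval 54.5 to 56.7) and 59.9% at P2 (interval 59.0 to 60.9). Ccnd1 made up 26.5%, 35.9% and 32.9%, and Ccnd2 6.33%, 8.53% and 7.20%. The intervals of the Ccnd3 share did not overlap between any 2 libraries. The summed D-cyclin level was 260.1, 286 and 311 FPKM, and it was highest at P2 and lowest at P0 under each of the 3 other scalings too.

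In the deposited values both E cyclins were higher at P1 and P2 than at P0, and Ccne1 outweighed Ccne2 in each library. Ccne1 (ENSMUSG00000002068, chromosome 7) encodes cyclin E1, which activates CDK2 late in G1. It measured 330.1 FPKM at P0 from 6675 reads, 388 at P1 from 6106 reads and 365 at P2 from 7130 reads. P0 was the low library and P1 the high one. The ratio to P0 was 1.18 at P1 (interval 1.14 to 1.22) and 1.11 at P2 (interval 1.07 to 1.14), and P2 was at 0.941 of P1 (interval 0.909 to 0.974). Under median-of-ratios scaling the log2 difference of Ccne1 at P2 shrank from 0.15 to 0.01, and the interval of its ratio to P0 held 1 (0.977 to 1.04).

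Ccne2 (ENSMUSG00000028212, chromosome 4) encodes cyclin E2, the second activator of CDK2. It measured 10.9 FPKM at P0 from 389 reads, 13.0 at P1 from 360 reads and 16.0 at P2 from 551 reads. Unlike the other cyclins it was, in the deposited values, higher at P2 than at P1 as well as higher at P1 than at P0. The ratios were 1.19 at P1 (interval 1.03 to 1.38) and 1.47 at P2 (interval 1.29 to 1.68) against P0, and 1.23 for P2 against P1 (interval 1.08 to 1.41). Under median-of-ratios scaling the interval of Ccne2 at P1 against P0 held 1 (0.948 to 1.27), so that step depends on the scaling. Its intervals at P2 against P0 and at P2 against P1 stayed above 1. Ccne2 had the fewest reads of the 10 genes at each passage, so its intervals are among the widest. Its share of the summed E-cyclin FPKM was 3.19% at P0 (interval 2.89 to 3.53), 3.23% at P1 (interval 2.91 to 3.58) and 4.19% at P2 (interval 3.86 to 4.56). Ccne1 accounted for the rest.

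**Figure D2:**
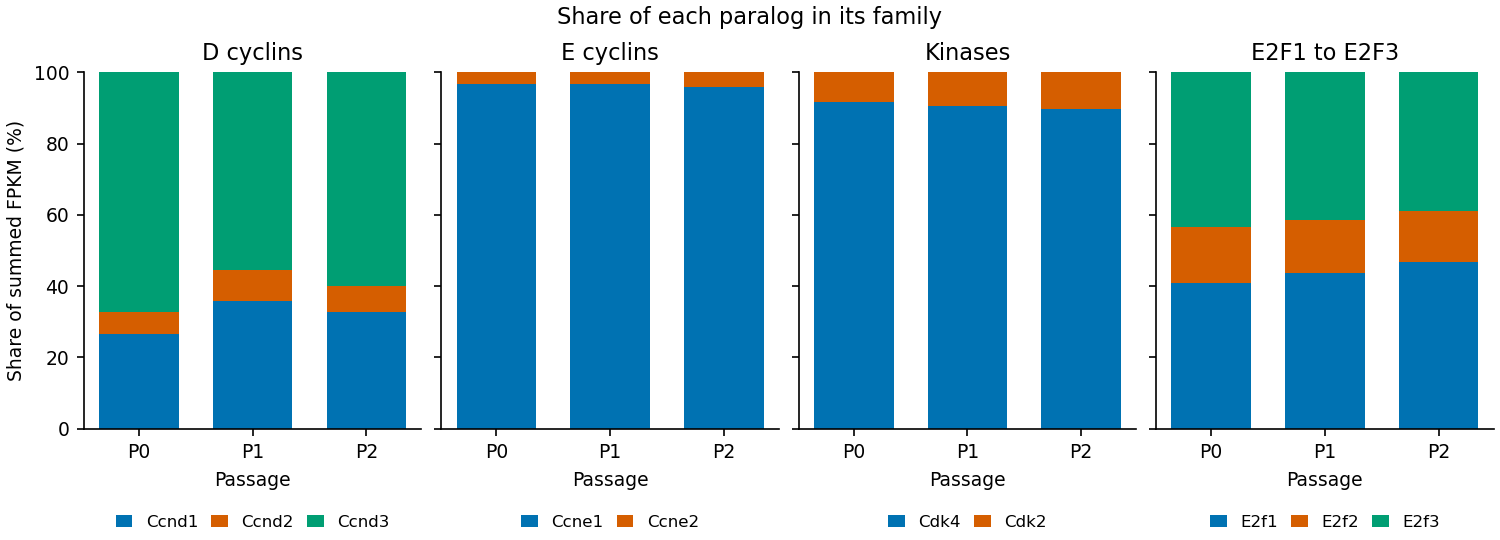
Share of each paralog in the summed FPKM of its family (%, stacked bars, axis from 0) in the P0, P1 and P2 libraries. Ccnd3 takes 67.2% of the D cyclins at P0, against 55.6% at P1 and 59.9% at P2, while Ccne1 and Cdk4 take most of their pairs in all 3 libraries.

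The 2 kinases differed in which library was low. Cdk4 (ENSMUSG00000006728, chromosome 10), the partner of the D cyclins, measured 426 FPKM at P0 from 10614 reads, 441 at P1 from 8539 reads and 392 at P2 from 9428 reads. P2 was the low library. The ratio of P2 to P0 was 0.920 (interval 0.895 to 0.946) and that of P2 to P1 was 0.890 (interval 0.864 to 0.917). The ratio of P1 to P0 was 1.03 (interval 1.005 to 1.06), and its direction turned under median-of-ratios scaling, where the log2 difference was -0.07 in place of 0.05. Cdk4 was the most abundant of the 10 genes and, in the deposited values with the smallest multiple of E2f3 reads, the only one whose interval lay below 1 at P2 against P0.

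Cdk2 (ENSMUSG00000025358, chromosome 10), the partner of the E cyclins, measured 38.5 FPKM at P0 from 2107 reads, 46.6 at P1 from 1987 reads and 44.8 at P2 from 2368 reads. P0 was the low library. The ratio to P0 was 1.21 at P1 (interval 1.14 to 1.29) and 1.16 at P2 (interval 1.1 to 1.24), and P2 was at 0.961 of P1 (interval 0.905 to 1.02). With median-of-ratios scaling the ratio to P0 was 1.12 at P1 (interval 1.05 to 1.19) and 1.06 at P2 (interval 1.002 to 1.13). The share of Cdk2 in the summed FPKM of the kinase pair was 8.28% at P0, 9.57% at P1 and 10.2% at P2. The 2 ends differed beyond counting error, at 7.93 to 8.64% and 9.84 to 10.7%.

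The sequence before the Cdk4 start is shown because this gene was the most abundant of the 10 and because its window holds a repeated motif. RefSeq promoters (build GRCm38.p6) were found for 7 of the 10 genes, and the 250 bases before each of their 10 start sites were searched. The Cdk4 window, chr10:127063285-127063534 on the plus strand, holds the palindrome CACGTG 4 times. CACGTG is the E-box bound by MYC, MAX and related factors, and it is in capitals here:
Cdk4: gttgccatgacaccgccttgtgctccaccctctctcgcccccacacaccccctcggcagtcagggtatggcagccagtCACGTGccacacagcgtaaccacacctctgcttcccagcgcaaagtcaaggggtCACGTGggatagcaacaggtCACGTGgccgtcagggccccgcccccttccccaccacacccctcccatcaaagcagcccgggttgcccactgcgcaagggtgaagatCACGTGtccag
The first of the 4 begins 172 bases before the start and the last begins 11 bases before it. CACGTG was present in 6.02% of all 32851 RefSeq promoter windows of this length, and 20 of them (0.0609%) held it at least 3 times. This motif was searched after the sequence was seen. Mycn, a MYC family gene, measured 131, 191 and 170 FPKM and Myc 53.2, 48.3 and 44.6 FPKM. The part of either in the Cdk4 level was not tested. A match is a description of letters, and binding was not measured.

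Among the activator E2Fs, E2f1 was higher at P2, while E2f2 and E2f3 were slightly lower than P0 at both later passages, by an amount whose side of the counting interval depends on the scaling. E2f1 (ENSMUSG00000027490, chromosome 2) encodes the founding E2F, which drives S-phase genes and is itself an E2F target. It measured 27.2 FPKM at P0 from 1734 reads, 28.5 at P1 from 1412 reads and 33.0 at P2 from 2031 reads. P2 was the high library. The ratio was 1.21 for P2 against P0 (interval 1.14 to 1.29) and 1.16 for P2 against P1 (interval 1.08 to 1.24). For P1 against P0 it was 1.05 (interval 0.975 to 1.12), and that small difference turned direction under median-of-ratios scaling. That scaling also reduced the ratio of P2 to P0 to 1.11 (interval 1.04 to 1.18).

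E2f2 (ENSMUSG00000018983, chromosome 4) encodes E2F2, the least abundant of the 10 by FPKM. It measured 10.4 FPKM at P0 from 625 reads, 9.84 at P1 from 459 reads and 10.1 at P2 from 585 reads. Its ratios to P0 were 0.944 at P1 (interval 0.835 to 1.07) and 0.970 at P2 (interval 0.865 to 1.09), so no difference was detectable in the deposited values at this depth. Under median-of-ratios scaling both intervals lay below 1, with ratios of 0.871 (interval 0.771 to 0.984) and 0.885 (interval 0.789 to 0.992).

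E2f3 (ENSMUSG00000016477, chromosome 13) encodes E2F3, which is made in long and short forms from 2 start sites. It measured 28.9 FPKM at P0, 27.0 at P1 and 27.4 at P2. Its ratios to P0 were 0.934 at P1 (interval 0.866 to 1.01) and 0.949 at P2 (interval 0.884 to 1.02), and the ratio of P2 to P1 was 1.02 (interval 0.941 to 1.1). The reads of E2f3 are known only up to a whole multiple, and these intervals use the smallest. With 2 times the reads, an alternative added after seeing the data, they narrow to 0.886 to 0.985 at P1 and 0.903 to 0.997 at P2 and no longer hold 1. Under median-of-ratios scaling the ratios to P0 were 0.862 (interval 0.800 to 0.929) and 0.866 (interval 0.807 to 0.929), also below 1. The deposited table gives 1 value per gene, so the forms were summed. The summed level of E2f1, E2f2 and E2f3 was 66.6, 65.3 and 70.6 FPKM. E2f1 made up 40.9% of it at P0 (interval 39.4 to 42.4), 43.6% at P1 and 46.8% at P2 (interval 45.3 to 48.3), and E2f3 43.4%, 41.3% and 38.9%. These shares rest on the gene lengths behind the deposited FPKM, and their intervals on the smallest multiple of E2f3 reads.

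The windows before the 2 E2f3 starts are shown because the starts differ in sequence while the table holds only their sum. They lie on the minus strand of GRCm38.p6, the upstream one at chr13:29986064-29986313 and the downstream one at chr13:29984392-29984641. Capitals mark matches to the E2F letters TTTCCCGC and TTCCCGCC, or to CACGTG, on either strand:
E2f3 upstream start: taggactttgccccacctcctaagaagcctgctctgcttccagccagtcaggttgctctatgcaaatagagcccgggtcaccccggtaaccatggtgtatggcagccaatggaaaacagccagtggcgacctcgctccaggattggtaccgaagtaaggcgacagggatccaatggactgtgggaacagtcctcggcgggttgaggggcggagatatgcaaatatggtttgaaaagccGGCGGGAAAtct
E2f3 downstream start: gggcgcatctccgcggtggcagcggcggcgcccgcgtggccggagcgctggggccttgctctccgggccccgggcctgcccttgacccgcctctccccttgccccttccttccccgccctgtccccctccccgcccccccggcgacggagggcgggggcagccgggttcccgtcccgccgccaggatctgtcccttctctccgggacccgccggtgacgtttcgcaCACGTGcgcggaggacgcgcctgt
In the upstream window TTTCCCGC and TTCCCGCC overlap on the opposite strand, from 12 to 4 bases before the start. The downstream window holds none of the E2F letters searched and 1 CACGTG. The letters G and C make up 55.6% of the upstream window and 78.0% of the downstream window, against a median of 52.4% over all promoters. The other E2F letters searched on both strands were TTTCGCGC and TTTGGCGC, and 2.92% of all promoter windows held at least 1 of the 4. Besides E2f3, the Cdk2 window held 1 match, to TTTCCCGC, from 140 to 133 bases before the start on the opposite strand. The windows of Ccnd3, Ccne1, Cdk4, E2f1 and E2f2 held none. That says only that these letters are not in those windows, and 2 of the windows may not be promoters of the coding gene. The E2f1 window lay wholly within annotated exons, and the second E2f2 start lies 8388 bases from the nearest start of a coding M21 transcript.

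**Figure D3:**
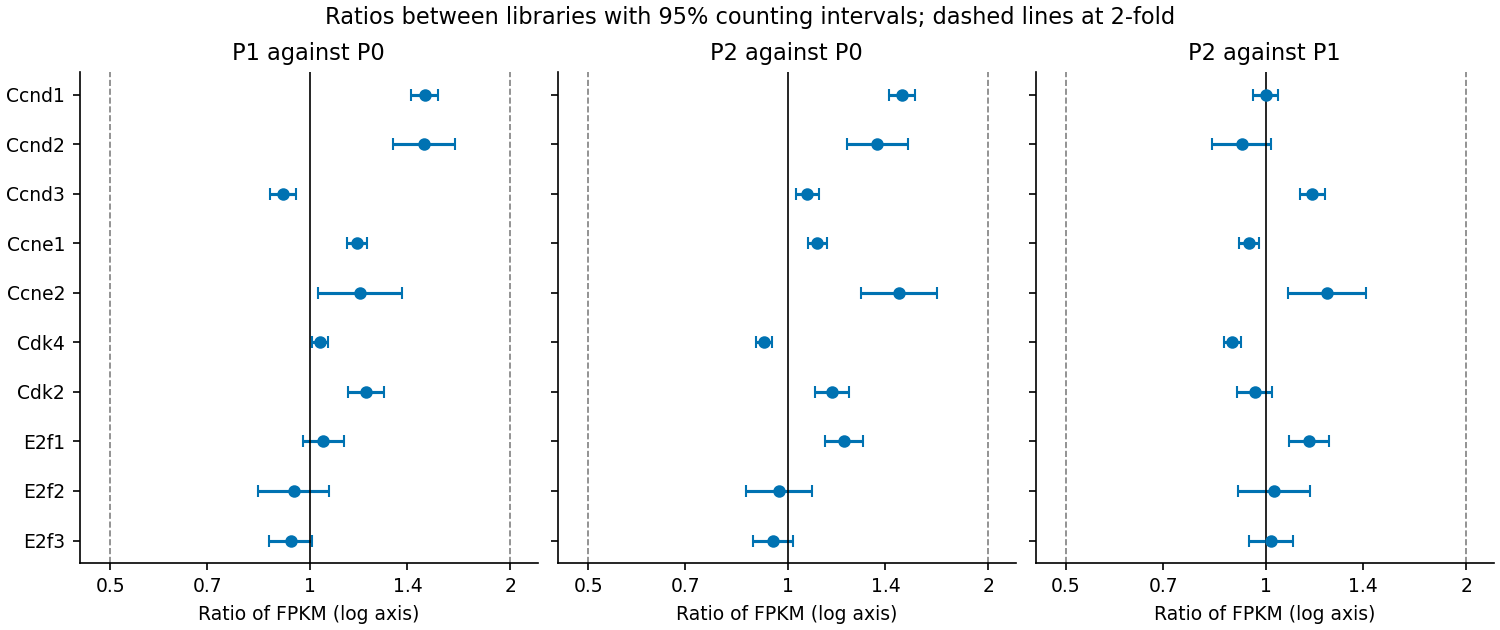
Ratio of FPKM between libraries (log axis) for each gene, with exact 95% counting intervals, with a panel for each pair of passages. Dashed lines mark 2-fold; ratios span 0.910 to 1.49 for P1 over P0, 0.920 to 1.48 for P2 over P0 and 0.890 to 1.23 for P2 over P1.

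Counting error was small enough at these depths for modest differences between libraries to stand out. At P1 against P0 the interval lay above 1 for 6 of the 10 genes, beside 34.5% of all genes, and below 1 for Ccnd3, beside 22.6% of all genes. It held 1 for E2f1, E2f2 and, with the smallest multiple of its reads, E2f3. At P2 against P0 it lay above 1 for 7 genes, beside 39.6% of all genes, and below 1 for Cdk4, beside 25.7% of all genes. It held 1 for E2f2 and, with the smallest multiple of its reads, E2f3. At P2 against P1 it lay above 1 for Ccnd3, Ccne2 and E2f1, beside 24.1% of all genes, and below 1 for Ccne1 and Cdk4, beside 18.9% of all genes. Under median-of-ratios scaling the interval lay above 1 for 4 genes and below 1 for 4 at P1 against P0 (Ccnd3, Cdk4, E2f2 and E2f3). At P2 against P0 it then lay above 1 for 5 and below 1 for 3 (Cdk4, E2f2 and E2f3). The shares over all genes were not computed under this scaling, so these counts have no background beside them. In the deposited values 57%, 65.3% and 43% of all genes had an interval without 1, in either direction, in the 3 comparisons. An interval narrows with the number of reads, and most of the 10 genes were read deeply. These counts were not set beside genes with similar reads, so no property of the G1 genes is drawn from them. Any 2 of the 3 comparisons share 1 library.

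The median log2 difference over the 10 genes was 0.15 at P1 against P0, 0.18 at P2 against P0 and 0.01 at P2 against P1. The same median over all genes compared was 0.06, 0.07 and 0.02. Median-of-ratios scaling centres the libraries on the typical gene among those above 0 in every library. It shifted the median of all genes compared by -0.11 at P1 and -0.12 at P2, to -0.05 at each. The median of the 10 genes under this scaling was 0.03 at P1 and 0.05 at P2. At P1 5 were above and 5 below P0, beside 43.9% of all genes above. At P2 6 were above and 4 below, beside 44.5%. In the deposited values 7 were above and 3 below P0 at both passages, beside 57.6% and 57.7% of all genes above. With 10 genes, these counts lie near the shares over all genes.

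The order of levels changed little between passages. By FPKM the order at P0 was Cdk4, Ccne1, Ccnd3, Ccnd1, Cdk2, E2f3, E2f1, Ccnd2, Ccne2 and E2f2. With the smallest multiple of E2f3 reads, E2f3 and E2f1 could not be told apart at P0 (ratio 1.06, interval 0.992 to 1.14). With 2 times those reads the interval was 1.002 to 1.13 and lay just above 1. Ccne2 and E2f2 could not be told apart at P0 either (ratio 1.05, interval 0.919 to 1.19). At P1 and P2 E2f1 came before E2f3, with a ratio of 1.06 at P1 (interval 0.976 to 1.14) and 1.20 at P2 (interval 1.13 to 1.29). All other neighbours in the order differed beyond counting error in each library. The ratio of Cdk4 to Ccne1 was 1.29 at P0, 1.14 at P1 and 1.07 at P2 (interval 1.04 to 1.11).

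These levels depend on the gene length in the FPKM formula. The length recovered for 8 of the 10 genes lies within 1 base of the mean over all transcripts of the gene in GENCODE M21, short ones included. For Ccne1 it was 871 bases against 2000 for the longest coding transcript, and for Ccnd2 1639 against 6330. Per base of the longest coding transcript the levels at P0 were 223 for Cdk4, 144 for Ccne1, 97.6 for Ccnd3, 37.7 for Cdk2 and 36.8 for Ccnd1. The first 3 places were thus the same in each library, while Ccnd2 dropped to 4.26, the lowest at P0 of the 9 genes compared. E2f3 was left out, since its length is known only as a whole multiple of 2459, so the shares of E2f1, E2f2 and E2f3 were not recomputed. Those shares depend on length too. Per longest coding transcript E2f2 measured 5.68 at P0 in place of 10.4 FPKM, and E2f1 27.1 in place of 27.2. The Ccnd2 share of the D cyclins became 3.07%, 4.22% and 3.52%, and the Cdk2 share of the kinase pair 14.5%, 16.6% and 17.6%. Ratios of 1 gene between libraries do not depend on length.

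Several of the genes share exon bases with a neighbour on the opposite strand, and no source used here says whether counting used strand. Ccnd1 shares 23.4% of its exon bases with LTO1, which measured 4.31, 6.10 and 9.0 FPKM. Cdk4 shares 19.7% with Tspan31 (27.7, 29.8 and 35.4 FPKM) and Ccne2 17.4% with Ints8 (31.5, 25.9 and 25.6 FPKM). Ccnd3 shares 4.11% with Bysl (41.6, 35.2 and 35.1 FPKM), and the overlaps of Ccnd2 and Cdk2 were smaller. The pseudogene Ccnd3-ps, a near copy of Ccnd3 at 96.3% identity over 881 bases, measured at most 0.101 FPKM. The part of these neighbours in the values was not tested.

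Of the other genes of the pathway, the CDK inhibitors held most of those past 2-fold. Over 7 lists with 62 genes, counted once each, 2 of 60 measured genes were past 2-fold higher and 1 lower at P1 against P0. At P2 against P0 5 of 61 were higher and 1 lower, and at P2 against P1 0 of 61. The share over all genes was 4.12% higher and 0.549% lower at P1, 6.72% and 1.16% at P2, and 0.78% and 0.883% between P1 and P2. The median difference of these genes was 0.09 at P1 and 0.13 at P2, beside 0.06 and 0.07 over all genes.

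Of the 7 CDK inhibitor genes, Cdkn1a, Cdkn2a and Cdkn2b were past 2-fold higher at P2 and Cdkn1b was past 2-fold lower. Cdkn1a encodes p21, a p53-induced inhibitor of CDK2 complexes, and measured 21.4, 63.6 and 75.6 FPKM, which makes P2 3.53-fold higher than P0 (interval 3.22 to 3.88). Cdkn2b encodes p15, an inhibitor of CDK4 and CDK6, and measured 0.526, 3.30 and 4.58 FPKM from 17, 83 and 143 reads. Cdkn2a encodes p16 and p19ARF, whose sum measured 6.11, 7.67 and 13.5 FPKM. Cdkn1b encodes p27, the other main inhibitor of CDK2 complexes, and measured 13.5, 6.20 and 4.89 FPKM, which was 2.76-fold lower at P2 than at P0 (interval 2.42 to 3.14). Cdkn1c, Cdkn2c and Cdkn2d did not pass 2-fold in any comparison with a pseudocount of 1.

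Among the pocket proteins that hold E2Fs in check, Rb1 was past 2-fold higher at P2, at 13.8, 27.1 and 30.9 FPKM, and Rbl1 and Rbl2 differed by -0.44 and 0.32 on the log2 scale. Among the CDK partners and activators, the germline cyclin gene Ccna1 was past 2-fold higher at P2 on the log2(FPKM + 1) scale, at 0.0377, 0.436 and 1.09 FPKM from 1, 9 and 28 reads. P2 over P0 was 29.0, with an interval of 4.80 to 1186. In median-of-ratios scaling Rb1, Cdkn2a and Ccna1 no longer passed 2-fold at P2, while Cdkn1a, Cdkn2b and Cdkn1b still did. Cdk6, the other partner of D cyclins, measured 15.6, 14.1 and 11.1 FPKM.

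None of the 7 other E2F and DP factors, the 9 measured turnover genes, the 8 upstream genes or the 24 textbook E2F targets passed 2-fold. The E2F targets had a median log2 difference of 0.14 at P1 and 0.17 at P2, with 18 and 17 of 24 above P0. Over all genes the medians were 0.06 and 0.07, with 57.6% and 57.7% above P0. Under median-of-ratios scaling the medians of the targets were 0.02 and 0.04, beside -0.05 and -0.05 over all genes. By that scaling 14 of 24 were above P0 at each passage, beside 43.9% and 44.5% of all genes. With quantile normalization 18 and 17 of 24 were above P0, beside 44.4% and 44.2% of all genes. The largest differences of the targets at P2 in the deposited values were in Cdc6, a licensing factor, at 0.57 and Rrm2, a ribonucleotide reductase subunit, at 0.45. E2f6, a repressor E2F, and E2f7, an atypical repressor, differed by 0.34 and 0.27. Fbxw7, the ubiquitin ligase subunit that targets cyclin E, measured 21, 29.5 and 32.9 FPKM, a log2 difference of 0.62 at P2. Skp1a, a core subunit of the same ligase, measured 373, 423 and 465 FPKM, a difference of 0.32. Upstream of the cyclins, Mapk3, which encodes ERK1, measured 75.7, 63.6 and 47.2 FPKM, a difference of -0.67, and Mycn differed by 0.38.

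**Figure D4:**
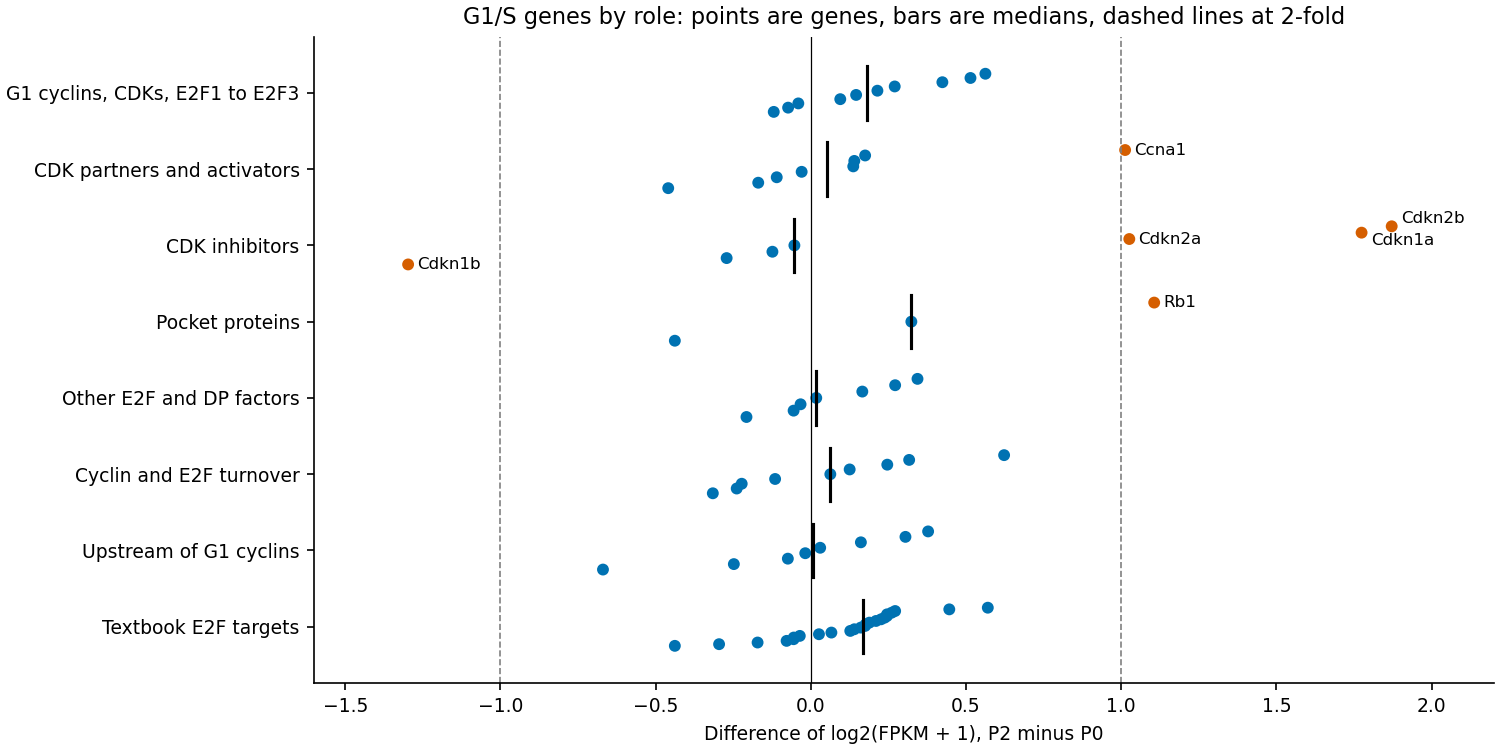
Difference of log2(FPKM + 1) at P2 minus P0 for the 10 genes and for the 7 other lists of G1/S genes (points are genes, black bars medians, dashed lines 2-fold). The 10 genes lie between -0.12 and 0.56; the 6 labelled genes past 2-fold are Cdkn1a, Cdkn2a, Cdkn2b, Cdkn1b, Rb1 and Ccna1.

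Ccnd1, the gene with the largest difference between P0 and P2, was compared with 8576 other genes with FPKM of at least 5 in all 3 libraries. The nearest by the pair of log2 differences from P0 were Hpn, Pnkd and Akr1b8, at distances of 0.01, 0.02 and 0.02. Pnkd measured 23.3, 35.2 and 35.2 FPKM, Akr1b8 11.5, 17.6 and 17.3 FPKM and Hpn 7.45, 11.4 and 11.5 FPKM. With 3 libraries such likeness is common, and 97 genes lay within a distance of 0.1.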

How the data were processed

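RNA sequencing of 3 libraries, 1 per passage, was analysed from 1 table of FPKM values that the authors deposited. Per the submitters' processing notes, Bowtie2 2.0.6, TopHat2 2.0.9 and build mm9 were used; which program, annotation and strand setting gave the counts is not stated in any source used here. Symbols matched 49326 of 50043 IDs, and promoter coordinates are RefSeq's (GRCm38.p6).

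Library totals were found from genes with 1 GENCODE M21 transcript, where the FPKM formula, solved for 1 read, most often returns the total itself. All 26291 IDs above 0 then gave whole reads (relative tolerance 1e-09). Reads and length are fixed only up to a shared whole multiple, and the one nearest the mean M21 transcript length was taken. The resulting reads add up to 100.5% of each total. For E2f3 the smallest multiple was used, which gives the widest interval; with 2 times the reads its intervals against P0 lie below 1.

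Ratio intervals are exact conditional (Clopper-Pearson) on these reads; without molecular identifiers, PCR copies count as separate reads. Intervals of shares within a family are normal approximations on the logit scale. Log2 differences used a pseudocount of 1, which understates the change of low genes. The steps were tested on simulated data. The members and gene lists were chosen with earlier results of these data known. Named genes are the members, Pold3, list genes past 2-fold or else the 2 largest P2 differences of a list, 4 CDK inhibitors and the 3 genes most like the leading member; Myc, Cdk6, Rbl1, Rbl2, Cdkn1c, Cdkn2c, Cdkn2d, the overlapping neighbours and the cell type markers were named in addition, after their values were seen. The planned comparison of protein sequences was not made, and proteins are not analysed here. Python 3.11.15, numpy 2.4.6, scipy 1.17.1, pandas 2.3.3, matplotlib 3.10.9 and BLAST 2.17.0 were used.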

Additional observations from a re-analysis of the deposited data

How the results depend on the processing

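Differences were recomputed with quantile normalization, rescaling to a sum of 1000000, median-of-ratios scaling, a lower pseudocount (0.1) and a higher or absent FPKM floor; the length of the longest coding transcript was added after seeing the data. None of these, where run, took any of the 10 genes past 2-fold. No paired analysis was possible because each passage has 1 library, and for the same reason no replicate could be left out. At P2 against P1, rescaling turned the direction of Ccnd1 (-0.00301 to 0.00338) and quantile normalization that of E2f3 (0.0218 to -0.00516). Median-of-ratios scaling reversed Ccnd3 at P2 against P0 (-0.0365), and at P1 against P0 Cdk4 (-0.0674) and E2f1 (0.0635 to -0.0483). It moved the median at P2 against P0 to 0.0498 for the 10 genes and to -0.0520 for all genes compared. It also put the counting interval below 1 for 4 of the 10 genes at P1 and 3 at P2 against P0, in place of 1 each. Taking 2 times the reads of E2f3, also added after seeing the data, made this 2 each. The share of all genes with an interval below 1 was not computed under median-of-ratios scaling.

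The counts over all genes, higher and lower, became 1079 and 175 at P1 against P0, 1569 and 286 at P2 against P0 and 370 and 265 at P2 against P1 with a pseudocount of 0.1. With a floor of FPKM 5 they were 310 and 32, 512 and 87, and 41 and 43. Quantile normalization gave 129 lower at P1 and 260 lower at P2, and rescaling gave 122 lower at P1 against P0, and 183 higher and 197 lower at P2 against P1. Other pathway genes past 2-fold higher numbered 1 at P1 against P0 with a floor of FPKM 5. At P2 against P0 they numbered 2 with median-of-ratios scaling and 3 with quantile normalization or a floor of FPKM 5. With a pseudocount of 0.1, 1 was higher at P2 against P1 (Ccna1) and 2 were lower at P1 against P0 (Cdkn1b and Cdkn2c). Per longest coding transcript the Ccne1 share of the E cyclins was 96.3%, 96.2% and 95.1%, and the Cdk4 share of the kinase pair 85.5%, 83.4% and 82.4%, at P0, P1 and P2. The cause of each change other than the smaller number of genes under a higher floor was not tested.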
